A study of Mus musculus with 16 samples.

Results

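The receptors for the alarmins IL-33, IL-25 and TSLP, and for the related cytokines IL-18 and IL-7, were followed through CD4+ T cells of mice infected with the hookworm model *Nippostrongylus brasiliensis* (Nb). Their 7 genes were *Il1rl1*, *Il1rap*, *Il17rb*, *Crlf2*, *Il18r1*, *Il18rap* and *Il7r*, chosen by symbol and not by level. They were 7 of the 30785 genes in the lung and mesenteric lymph node (MLN) count tables and of the 32017 genes in the tables that joined mediastinal lymph node (medLN) and MLN. All 7 had at least 1 UMI (a counted transcript molecule) in each of the 12 samples.

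IL-33, IL-25 and TSLP are released by epithelial and other barrier cells on damage or worm infection, and act on Th2 cells and group 2 innate lymphoid cells (ILC2). IL-33 binds ST2, the product of *Il1rl1*, which signals together with the accessory chain encoded by *Il1rap*, and IL-18 binds the product of *Il18r1*, which signals with the chain encoded by *Il18rap*. IL-25 binds IL-17RB (*Il17rb*), TSLP binds a pair of the TSLP receptor chain (*Crlf2*) and the IL-7 receptor alpha chain (*Il7r*), and the latter joins the common gamma chain to bind IL-7, a survival factor of naive and memory T cells.

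Droplet single-cell 5′ RNA sequencing was carried out on cells sorted at day 10 after injection of 500 third-stage Nb larvae into 4get mice on the B6 background, in which eGFP reports transcription of *Il4*. In the first run, CD4+IL-4eGFP+ cells of perfused lung and of MLN came from 2 mice aged 13 weeks, with 1 library per organ and mouse. In the second run, medLN and MLN cells of 2 other mice aged 10 weeks were tagged with hashtag antibodies, sorted as CD4+IL-4eGFP+ or CD4+IL-4eGFP- and loaded as 1 library per gate. Every mouse was infected, so that no value below compares infected with uninfected animals, and the eGFP reporter marks *Il4* transcription in innate cells too.

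After quality filters, and for lung and MLN the demand for a productive TCR alpha and beta chain, 1082 and 416 lung cells and 2462 and 754 MLN cells remained, with 2798232 to 14512767 UMIs per library and a median of 4971 to 6910 UMIs per cell. The 8 hashtag samples had 1992 to 2249 cells each, 7546083 to 10636927 UMIs and a median of 3165.5 to 3666.5 UMIs per cell. Pairs of libraries shared between 0 and 155 cell barcodes, at most 1.61% of the smaller library. CD4 T cell markers (such as *Cd4*, *Cd3e* and *Cd3g*) were present at 2375 to 2471 UMIs per 1000000 UMIs of the sample (CPM) in lung. They were at 2859 to 2877 CPM in MLN and 2051 to 2632 CPM in the node samples. The list of 5 eosinophil genes summed to 2.95 and 5.74 CPM in the lung libraries. *Epx*, *Prg2* and *Il5ra* were at 0 in both, and *Siglecf* and *Ccr3* were not. Levels below are sums over the cells of a sample in CPM, in which fewer cells of a type and less RNA per cell cannot be told apart.

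*Il1rl1*, *Il18r1* and *Il18rap* are neighbours on chromosome 1. In GRCm38, the build the authors aligned to in the first run, *Il1rl1* lies on chr1:40429570-40465415, *Il18r1* on chr1:40465552-40500854 and *Il18rap* on chr1:40515362-40551705, all on the plus strand, with 136 bases between the first pair and 14507 bases between the second pair. The other genes stand apart, with *Il17rb* on chr14:29996135-30008896 (minus strand), *Il7r* on chr15:9505788-9530176 (minus strand), *Il1rap* on chr16:26581704-26730117 (plus strand) and *Crlf2* on chr5:109554709-109558993 (minus strand). RefSeq gave 10 promoter windows of 300 bases for the 7 genes (250 before and 50 after a transcript start, GRCm38.p6). The letters GATA with A or T before and A or G after them, on either strand, the core bound by GATA factors such as the Th2 factor GATA-3, occurred in 3 of the 10 windows, a share near the 29.8% of all 32851 windows. The 3 windows, 2 of *Il1rl1* and 1 of *Il18rap*, are shown because they are all the windows with a match. A link between these letters and the levels below was not tested. The 250 bases before each start are given for these windows with the matches in capitals, at chr1:40429320-40429569 and chr1:40439379-40439628 for the starts of *Il1rl1* and at chr1:40515112-40515361 for *Il18rap*. The matches are a description of letters, 5 before the first *Il1rl1* start and 1 in each of the others, and binding was not measured.
Il1rl1, first start: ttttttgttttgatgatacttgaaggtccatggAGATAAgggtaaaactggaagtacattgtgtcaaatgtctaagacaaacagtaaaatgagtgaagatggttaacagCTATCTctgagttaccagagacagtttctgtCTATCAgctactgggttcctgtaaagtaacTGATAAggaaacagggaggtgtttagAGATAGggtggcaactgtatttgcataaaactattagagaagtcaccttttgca
Il1rl1, second start: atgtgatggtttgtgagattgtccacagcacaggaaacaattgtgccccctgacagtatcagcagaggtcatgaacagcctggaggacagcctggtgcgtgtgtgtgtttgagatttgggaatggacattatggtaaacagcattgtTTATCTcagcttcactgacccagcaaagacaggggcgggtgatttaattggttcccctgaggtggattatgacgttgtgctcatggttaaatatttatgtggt
Il18rap: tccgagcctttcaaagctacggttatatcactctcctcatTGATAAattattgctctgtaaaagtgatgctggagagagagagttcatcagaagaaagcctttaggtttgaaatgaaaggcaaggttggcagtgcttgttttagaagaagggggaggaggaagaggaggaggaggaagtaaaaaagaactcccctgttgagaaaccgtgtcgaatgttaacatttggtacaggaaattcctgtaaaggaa

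TTCNNNGAA, letters of STAT factors searched on both strands, occurred in 2 of the 10 windows (1 of *Il7r* and 1 of *Il18r1*) against 8.30% of all windows. Gene counts do not separate the transcripts that begin at the *Il1rl1* starts, nor the membrane and soluble forms of ST2.

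The comparison of lung with MLN asked how the receptor genes of IL-4eGFP+ cells differed between the organ the larvae cross and the node that drains the gut. *Il1rl1*, *Il7r*, *Il18rap* and *Il18r1* were higher in lung, *Il17rb* was lower, and *Crlf2* and *Il1rap* did not pass the test. In this comparison 31.0% of the 10588 genes tested were called (17.0% higher and 14.0% lower in lung), and 5 of the 7 members were called, 4 higher and 1 lower. The median log2 fold change was 2.43 over the members and -0.01 over all genes.

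*Il1rl1*, the IL-33 receptor gene, was counted at 455 and 258 CPM in the lungs of the 2 mice and at 10.6 and 15.3 CPM in their MLN. The organs did not overlap, and the lung of mouse 1 was above that of mouse 2. The fitted difference was 32.6-fold (log2 fold change 5.03, SE 0.33, 95% interval 4.29 to 5.76, adjusted p = 5.13e-06 by edgeR's quasi-likelihood test), and *Il1rl1* ranked 55 of 10588 genes by its increase in lung. A UMI of *Il1rl1* was found in 69.96% and 53.8% of lung cells and in 3.29% and 4.91% of MLN cells. Lung cells had more UMIs, with a median of 6910 and 5765.5 per cell in lung and 4980 and 4971 in MLN. The part of sequencing depth and of RNA per cell in this was not tested. With cells under 2000 UMIs dropped and the rest thinned to 2000 UMIs, the shares were 47.3% and 34.6% in lung and 1.49% and 1.88% in MLN. Before thinning, there were 5.10 and 3.22 *Il1rl1* UMIs per positive lung cell and 1.89 and 1.84 per positive MLN cell. The higher UMI number of lung cells was not removed from these counts. *Il1rap*, the accessory chain of ST2, was at 5.42 and 7.89 CPM in lung and 4.64 and 4.94 CPM in MLN, a log2 fold change of 0.55 (95% interval -0.10 to 1.201, adjusted p = 0.177). The interval of this partner chain lay below that of *Il1rl1*, and a UMI of it was seen in 4.16% and 5.05% of lung cells and 2.64% and 2.92% of MLN cells.

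*Il18rap* and *Il18r1*, the IL-18 receptor pair, were also higher in lung. *Il18rap* was at 15.2 and 10.8 CPM in lung and 1.59 and 1.35 CPM in MLN, and differed 9.73-fold (log2 fold change 3.28, SE 0.33, adjusted p = 8.15e-05). *Il18r1* was at 15.7 and 10.4 CPM in lung and 2.35 and 3.82 CPM in MLN, and differed 5.37-fold (log2 fold change 2.43, SE 0.33, adjusted p = 0.000606). For both chains the lowest lung library lay above the highest MLN library. The transcripts were sparse, with *Il18r1* in 9.52% and 5.77% of lung cells and 1.06% and 1.72% of MLN cells, and *Il18rap* in 10.5% and 6.25% of lung cells and 0.812% and 0.663% of MLN cells.

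*Il7r*, which serves both the IL-7 and the TSLP receptor, was at 419.8 and 367 CPM in lung and 57.4 and 102 CPM in MLN. It differed 5.59-fold (log2 fold change 2.48, SE 0.24, adjusted p = 5.86e-05), and the share of cells with a UMI was 72.6% and 66.6% in lung against 13.2% and 21.1% in MLN. *Crlf2*, the chain that makes the TSLP receptor specific, was at 165 and 130.1 CPM in lung and 133 and 128 CPM in MLN, so that the organs overlapped. Its log2 fold change was 0.34 (95% interval -0.01 to 0.68, adjusted p = 0.128). The call depended on the fit, since *Crlf2* passed with the mouse as replicate block (log2 fold change 0.32, adjusted p = 0.0397) and without the second lung library (0.55, adjusted p = 0.00288), within a range of 0.00288 to 0.8 over its alternatives.

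*Il17rb*, the IL-25 receptor gene, went the other way, with 18.1 and 18.3 CPM in lung and 27.8 and 40.4 CPM in MLN. Both MLN libraries were above both lung libraries, and lung was 1.64-fold lower (log2 fold change -0.71, SE 0.20, 95% interval -1.15 to -0.27, adjusted p = 0.0221). This was the least stable of the calls, since the adjusted p was 0.0592 with DESeq2, 0.131 with cells thinned, 0.0692 without proliferating cells, 0.0928 without cells holding an ILC2, basophil or mast cell marker, and 0.131 without the second MLN library, in a range of 0.000111 to 0.131. Thinned shares of cells with a UMI were 3.56% and 3.19% in lung and 5.44% and 5.79% in MLN.

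**Figure D1:**
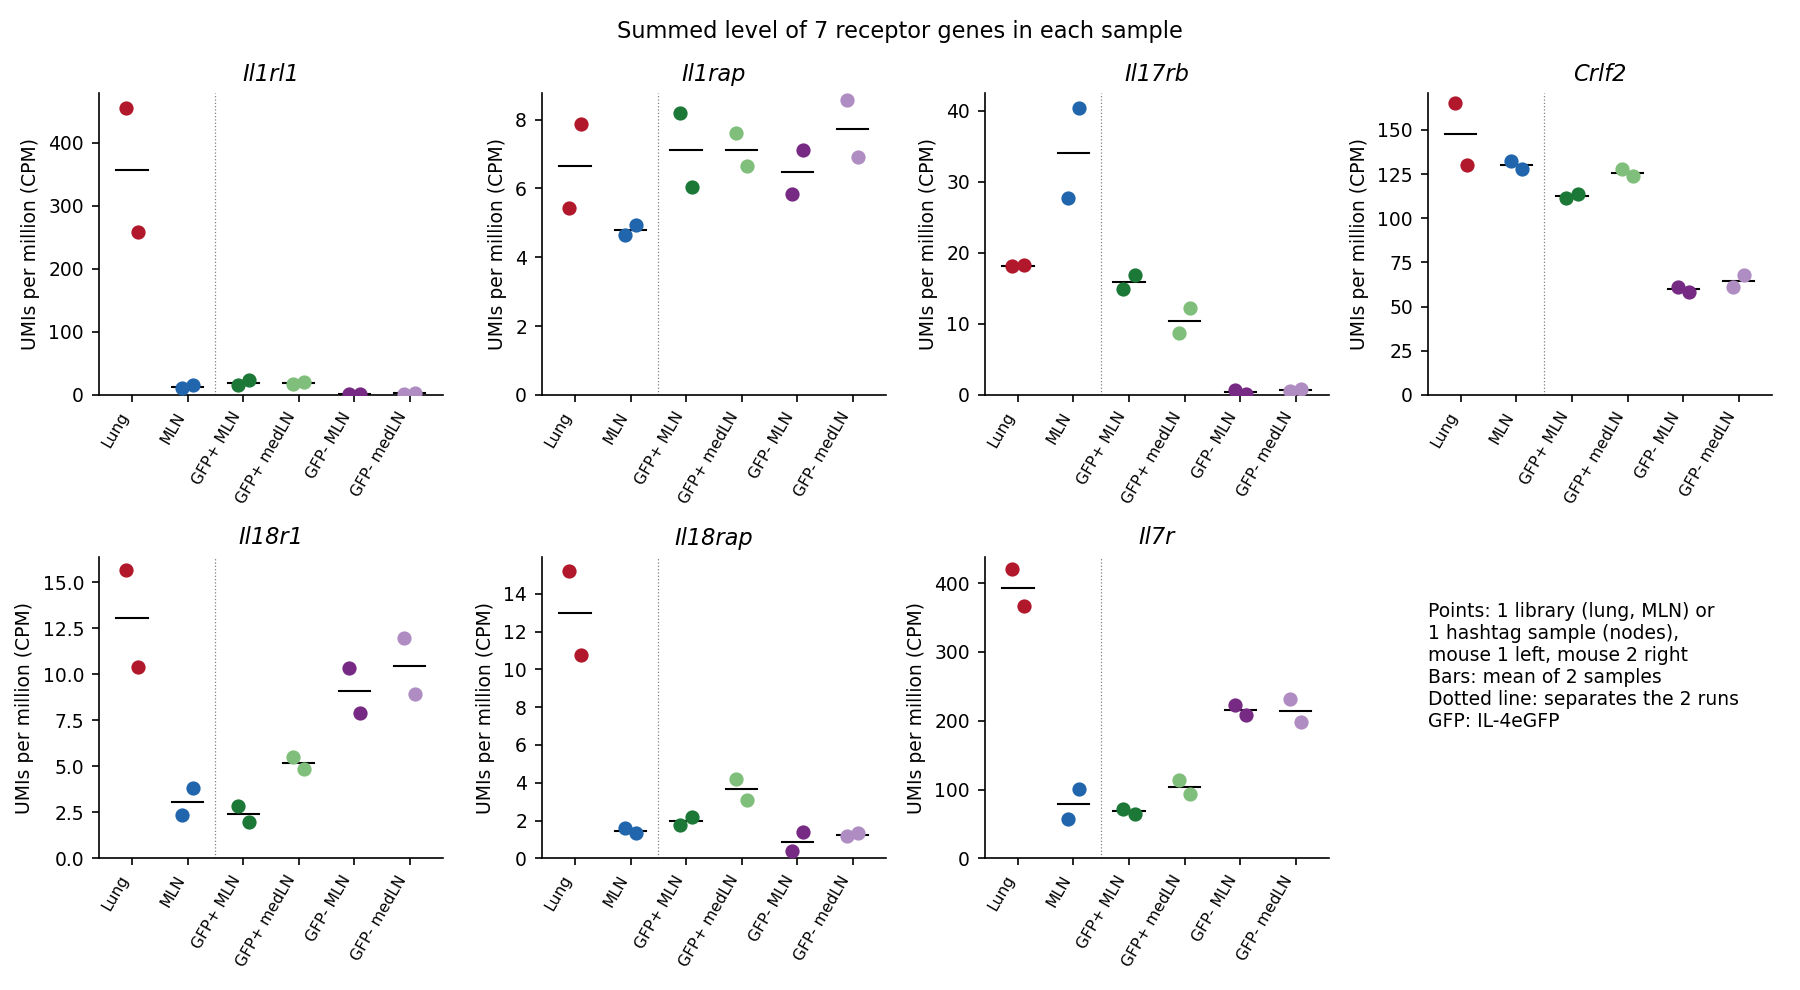
Level of each receptor gene in CPM in every sample, 1 panel per gene, with a point for each library (lung, MLN) or hashtag sample (nodes) and a bar for the mean of 2 samples. *Il1rl1* stands at 455 and 258 CPM in lung and at 24.1 CPM at most in every other sample, *Il17rb* is highest in the MLN libraries of the first run, and *Il7r* and *Il18r1* are higher in the IL-4eGFP- than in the IL-4eGFP+ node samples.

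Other cell types share these receptors, so their markers were summed in the same cells. The list of 6 ILC2 genes summed to 186 to 375 CPM in lung (5 of 6 present, *Rxrg* at 0) and 6.23 to 8.08 CPM in MLN, and the 8 basophil and mast cell genes to 114 to 122 CPM in lung (7 to 8 present) and 4.27 to 13.7 CPM in MLN (3 of 8 present, with *Mcpt8*, *Ms4a2*, *Fcer1a*, *Gata2* and *Prss34* at 0). Both lists thus moved with *Il1rl1*. Lung cells without a UMI of any of these markers, 587 of 1082 and 278 of 416 cells, held 380 and 217 CPM of *Il1rl1*. MLN cells without one, 2359 of 2462 and 726 of 754 cells, held 6.99 and 12.3 CPM. In a fit on those cells alone, which was not planned, the log2 fold change was 5.26 for *Il1rl1*, 2.46 for *Il18r1*, 3.20 for *Il18rap* and 2.35 for *Il7r*. These 4 members were called, among 2671 genes called in that fit. A count of 0 of sparse markers does not settle the type of a cell, and *Calca* of the ILC2 list was also a leading gene of the effector-like cluster below. The part of other cell types in the lung levels was not tested. Genes of recent activation (*Fos*, *Nr4a1*, *Egr1* and others, 11 in all) summed to 8423 to 8974 CPM in lung and 685 to 930.3 CPM in MLN. Lungs were digested with enzymes and nodes were mashed, so that organ and dissociation cannot be told apart.

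**Figure D2:**
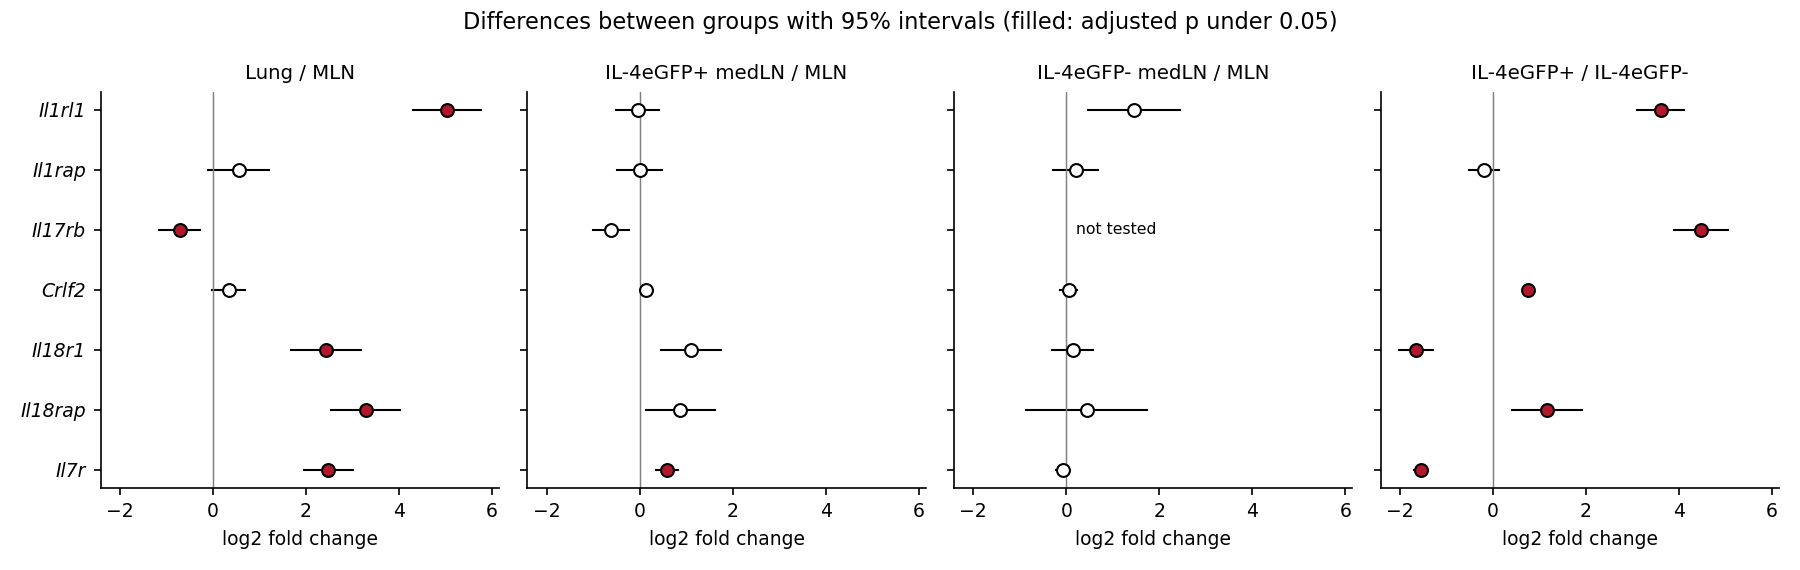
Log2 fold change of each receptor gene in 4 comparisons, with 95% intervals; filled points passed an adjusted p of 0.05. *Il1rl1* is at 5.03 for lung against MLN, at -0.04 for IL-4eGFP+ medLN against MLN and at 3.61 for IL-4eGFP+ against IL-4eGFP-, whereas *Il1rap* is near 0 in the node comparisons.

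Within the first run, cells were clustered without the members and the other genes of their pathways among the variable genes, and clusters were named from marker lists. Levels by cluster are given as a description with no test. An effector-like cluster (1138 cells, led by *Il5*, *Il13*, *Areg* and *Cxcl2*) took 77.8% and 70.7% of the lung cells and 2 MLN cells in all. It held 571 and 374 CPM of *Il1rl1* in the 2 lungs, and with it 89.4% and 88.2% of the *Il1rl1* UMIs of these libraries. *Il1rl1* and the ILC2 gene *Calca* were among its 10 leading genes. The effector-like cluster also held most of the lung *Il18rap* UMIs (93.8% and 90.0%) and *Il7r* UMIs (84.4% and 72.8%), at 497 and 438 CPM of *Il7r*.

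In MLN, *Il1rl1* was gathered in 1 cluster that stayed unnamed and was led by *Deptor*, *Ccr9*, *Nmur1* and *Gzma*, the gut-homing receptor gene *Ccr9* among them. Its 168 and 65 MLN cells were 6.82% and 8.62% of the libraries and held 71.2% and 58.8% of their *Il1rl1* UMIs, at 93.0 and 84.7 CPM. The same cluster had 74.2 and 108 CPM of *Il17rb*, the highest level of any cluster over all its cells (81.5 CPM), where the lung effector-like cells had 19.8 and 25.3 CPM. Its *Il7r* was at 157 and 297 CPM, and its *Il18r1* rested on 3 and 1 UMIs. Follicular helper-like cluster 4 (449 cells, median 6341 UMIs) had no *Il1rl1* UMI, which allows a share of up to 0.668% of its cells and bounds the background share in MLN, where in lung the lowest thinned share among the larger clusters was the 9.34% of the recirculating-like cells.

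The IL-25 receptor gene was spread more widely in MLN than the IL-33 receptor gene. Besides the *Ccr9* cluster, with 21.7% and 28.3% of the *Il17rb* UMIs, follicular helper-like cluster 4 had 26.7 CPM of *Il17rb* without *Il1rl1*. A cluster of 64 MLN cells led by *Lyz2*, *Apoe* and pancreatic enzyme genes, 24 and 40 cells by mouse, held 45.8 and 79.9 CPM of *Il17rb*. That cluster carried 13.3% of the *Il17rb* UMIs of the second MLN library.

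*Il7r* separated the MLN cells by type. The innate-like cluster (*Zbtb16*, *Klrb1c*, *Xcl1*, with as many Th1 markers) had 774 and 717 CPM of *Il7r* in 52 and 27 MLN cells, with 39.9 and 61.6 CPM of *Il18r1* and no *Il1rl1* UMI. At the other end, the follicular helper-like clusters had 4.20 CPM (cluster 4, 449 cells) and no UMI of *Il7r* (cluster 9, 188 cells, which allows up to 1.60%). Recirculating-like cells led by *Klf2* and *S1pr1* had 184 and 266 CPM of *Il7r* in MLN (cluster 8) and 288 and 451 CPM in lung (cluster 10). *Crlf2* ran from 93.9 CPM in the innate-like to 175 CPM in the *Ccr9* cluster.

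The proliferating-like cluster was present in both organs. Its cells had 196 and 99.7 CPM of *Il1rl1* in lung (96 and 47 cells) and 6.96 and 12.1 CPM in MLN (102 and 26 cells). Their *Il7r* was at 205 and 146 CPM in lung and 29.0 and 16.9 CPM in MLN. Recirculating-like cells, which formed cluster 10 in lung and cluster 8 in MLN, held *Il1rl1* with overlap between the organs, at 131 and 46.2 CPM in lung and 16.9 and 46.6 CPM in MLN.

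**Figure D3:**
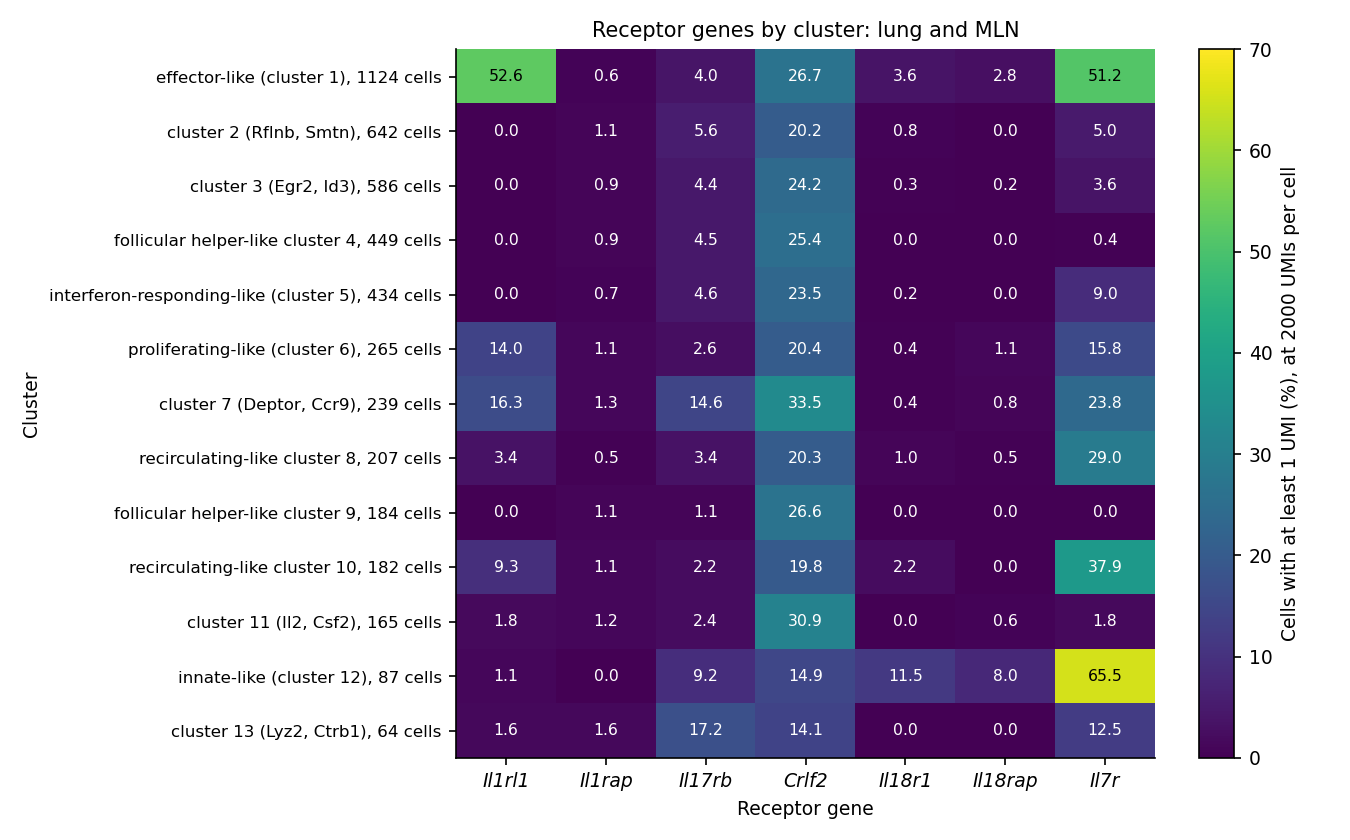
Percent of cells with a UMI of each receptor gene in each cluster of lung and MLN cells, after thinning to 2000 UMIs per cell. Levels in CPM over the cells of the cluster are not drawn. By these levels, the effector-like cluster is highest for *Il1rl1* (528 CPM). The innate-like cluster is highest for *Il7r* (737 CPM) and *Il18r1* (45.8 CPM), and cluster 7, led by *Ccr9*, for *Il17rb* (81.5 CPM).

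The invariant TCR alpha chain of NKT cells was found in 65 MLN cells. They had 636 CPM of *Il7r*, 101 CPM of *Il17rb*, 31.7 CPM of *Il18r1* and 23.0 CPM of *Il18rap*, and no UMI of *Il1rl1*, which allows a share of up to 4.62%. The other MLN cells had 57.1 CPM of *Il7r*, 29.4 CPM of *Il17rb*, 2.20 CPM of *Il18r1* and 11.9 CPM of *Il1rl1*.

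Lung cells with a UMI of *Il5* or *Il13*, the type 2 effector cytokines, carried *Il1rl1* at 549 and 310.5 CPM (351 and 88 cells), and the other lung cells at 404 and 241 CPM. After thinning, 56.7% and 43.2% of the cytokine-positive cells and 42.7% and 32.2% of the rest had an *Il1rl1* UMI, so that the receptor was not restricted to cells in which the cytokines were read. In MLN only 30 and 10 cells had *Il5* or *Il13*. These cells held 83.2 and 144 CPM of *Il1rl1* and 123 and 164 CPM of *Il17rb*, above the 9.05 and 12.4 CPM of *Il1rl1* and 25.7 and 37.7 CPM of *Il17rb* in the remaining MLN cells.

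Receptor chains were also counted cell by cell after thinning to 2000 UMIs, next to the number of cells that the product of the single shares gives. *Il1rl1* and *Il7r* were read together in 273 and 80 lung cells, where the product gives 237 and 64.6, and in 11 and 3 MLN cells, where it gives 2.79 and 1.70. The joint count was above the product in both organs of both mice, but the MLN counts were small. *Crlf2* and *Il7r*, the chains of the TSLP receptor, met in 146 and 47 lung cells (product 133 and 40.8) and in 42 and 13 MLN cells (product 46.1 and 18.8), so that their joint counts were on both sides of the product. *Il1rl1* and *Il17rb* met in 20 and 9 lung cells (product 18.0 and 4.49) and in 4 and 4 MLN cells (product 1.96 and 0.810). *Il18r1* and *Il18rap* met in 2 and 1 lung cells only, too few at this depth to set against the product.

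The second run asked whether IL-4eGFP+ cells of the lung-draining medLN resembled those of MLN, and measured both IL-4eGFP gates. In IL-4eGFP+ cells, *Il7r* was the only member called, where 1.28% of the 11263 genes tested were called (0.675% higher and 0.604% lower in medLN). *Il7r* was at 71.8 and 64.8 CPM in MLN and 114 and 93.8 CPM in medLN, and medLN was 1.51-fold higher (log2 fold change 0.59, SE 0.10, adjusted p = 0.0329). The groups did not overlap, but the call was lost without a filter on low counts (adjusted p = 0.109), without the first medLN sample (0.186) and without the second MLN sample (0.109), in a range of 0.00071 to 0.186. An unnamed cluster led by *Ccr2* and *S100a4* made up 8.58% and 8.73% of the MLN and 15.7% and 13.3% of the medLN cells of this gate, and held 17.5% and 13.2% of their *Il7r* UMIs in MLN and 32.6% and 29.3% in medLN. Recirculating markers summed to 1342 to 1393 CPM in MLN and 1540.4 to 1595 CPM in medLN, and the part of either in the *Il7r* call was not tested. *Il18r1* was at 2.84 and 1.98 CPM in MLN and 5.49 and 4.86 CPM in medLN (log2 fold change 1.10, 95% interval 0.46 to 1.75, adjusted p = 0.135), and *Il17rb* was at 14.8 and 16.9 CPM in MLN and 8.76 and 12.2 CPM in medLN (log2 fold change -0.62, 95% interval -1.01 to -0.22, adjusted p = 0.175). Neither passed the test over all genes. *Il18rap* followed with 1.75 and 2.17 CPM in MLN and 4.22 and 3.07 CPM in medLN (adjusted p = 0.31).

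*Il1rl1*, so unequal between lung and MLN, was at 15.1 and 24.1 CPM in MLN and 17.4 and 21.1 CPM in medLN, with a log2 fold change of -0.04 (95% interval -0.52 to 0.43, adjusted p = 0.963). The whole interval lies under the lung to MLN interval given above. *Crlf2* differed by 0.15 (adjusted p = 0.388) and *Il1rap* by less than 0.01 (adjusted p = 0.997) on the log2 scale. In the IL-4eGFP- gate 0 of the 6 members tested were called by edgeR, where 0.178% of the 10684 genes tested were called and 666 genes had an unadjusted p under 0.05. DESeq2 called 0 members too, and 17 genes in all. *Il1rl1* was read there in 49 UMIs over all 4 samples (log2 fold change 1.46 for medLN against MLN, 95% interval 0.48 to 2.44, adjusted p = 0.542), and *Il17rb*, with 16 UMIs, did not reach the minimum to be tested.

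Whether medLN and MLN differed unequally in the gates was tested by the interaction of node and gate, in which 0.156% of the 11535 genes tested and 0 of 7 members were called (807 genes had an unadjusted p under 0.05). The value for *Il7r* was 0.67 on the log2 scale (adjusted p = 0.153, unadjusted p = 0.000565). In the IL-4eGFP- gate *Il7r* was at 223 and 209 CPM in MLN and 231 and 198 CPM in medLN, with overlap. The interaction of *Il7r* passed with the hashtag sample as replicate block (adjusted p = 0.00119), with DESeq2 (0.0114), without a filter on low counts (0.00338) and with cells thinned (0.0415), in a range of 0.00119 to 0.52.

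The gate itself separated the receptors. In IL-4eGFP+ cells of the nodes *Il17rb*, *Il1rl1*, *Il18rap* and *Crlf2* were higher and *Il7r* and *Il18r1* were lower than in IL-4eGFP- cells, so that 6 of 7 members were called, against 62.1% of the 11535 genes tested (31.8% higher and 30.3% lower). *Il17rb* was at 14.8, 16.9, 8.76 and 12.2 CPM in the IL-4eGFP+ samples and at 0.622, 0.127, 0.519 and 0.798 CPM in the IL-4eGFP- samples, a 22.1-fold difference (log2 fold change 4.47, SE 0.26, adjusted p = 8.92e-08). *Il1rl1* was at 15.1, 24.1, 17.4 and 21.1 CPM against 0.995, 0.636, 2.08 and 2.66 CPM, a 12.2-fold difference (log2 fold change 3.61, SE 0.23, adjusted p = 1.72e-07). For both alarmin receptors every IL-4eGFP+ sample lay above every IL-4eGFP- sample, and in the IL-4eGFP- samples no more than 0.287% of cells had an *Il17rb* UMI and no more than 0.717% an *Il1rl1* UMI.

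*Crlf2* was the receptor gene of this group that IL-4eGFP- cells also held, with 112, 114, 128 and 124 CPM in the IL-4eGFP+ and 61.3, 58.4, 61.0 and 67.8 CPM in the IL-4eGFP- samples (1.68-fold, log2 fold change 0.75, SE 0.05, adjusted p = 1.78e-07). *Il7r* had 71.8, 64.8, 114 and 93.8 CPM in the IL-4eGFP+ and 223, 209, 231 and 198 CPM in the IL-4eGFP- samples, and was lower in the IL-4eGFP+ gate (log2 fold change -1.54, SE 0.07, adjusted p = 1.16e-08). The chains of the TSLP receptor thus differed between the gates in opposite directions.

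The IL-18 receptor chains also parted. *Il18r1* was lower in the IL-4eGFP+ gate, at 2.84, 1.98, 5.49 and 4.86 CPM against 10.3, 7.89, 11.9 and 8.91 CPM (log2 fold change -1.66, SE 0.17, adjusted p = 6.69e-06). *Il18rap* was higher there, at 1.75, 2.17, 4.22 and 3.07 CPM against 0.373, 1.40, 1.17 and 1.33 CPM (log2 fold change 1.15, SE 0.34, adjusted p = 0.0123). The latter call was lost with DESeq2 (adjusted p = 0.0503), without the second IL-4eGFP+ MLN sample (0.0501) and without the first IL-4eGFP+ medLN sample (0.0508), in a range of 0.00296 to 0.0508. *Il1rap* was at 7.12 CPM ± 0.96 (SD, n = 4) and 7.11 CPM ± 1.12 (SD, n = 4) in the gates (log2 fold change -0.19, 95% interval -0.51 to 0.14, adjusted p = 0.295). Each gate was 1 library, so that gate and library cannot be told apart, and the 4 samples per gate came from 2 mice.

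Recirculating markers (*Klf2*, *S1pr1* and others) summed to 3317 to 3624 CPM in the IL-4eGFP- and 1342 to 1595 CPM in the IL-4eGFP+ samples, beside the higher *Il7r* and *Il18r1* of the former. Follicular helper markers summed to 1462 to 1748 CPM in the IL-4eGFP+ and 438 to 507 CPM in the IL-4eGFP- samples. Lists that moved with *Il1rl1* and *Il17rb* were the effector genes (824 to 1179 CPM in the IL-4eGFP+ and 226 to 298 CPM in the IL-4eGFP- samples), the proliferation genes (2042 to 2527 against 679 to 843 CPM) and the 8 basophil and mast cell genes (15.1 to 29.6 CPM with 4 to 5 present, against 2.98 to 4.39 CPM with 2 to 3 present), in node cells that were not filtered on a TCR. The 6 ILC2 genes summed to 39.4 CPM in the second IL-4eGFP+ MLN sample and to 9.52 CPM at most in the other IL-4eGFP+ samples. In the IL-4eGFP- samples they summed to 4.48 to 10.2 CPM. That second MLN sample also had the highest *Il1rl1* (24.1 CPM) and *Il17rb* (16.9 CPM) of the node samples. The part of any of these lists in the gate differences was not tested.

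Clusters of the node cells, again without the members among the clustering genes, placed the receptors as follows. An effector-like cluster of 527 cells (*Il13*, *Areg*, *Hdc*, *Il5*) had *Il1rl1* at 138 and 149.8 CPM in the IL-4eGFP+ MLN and 145 and 190.1 CPM in the IL-4eGFP+ medLN samples, so that medLN reached the level of MLN in like cells. It held 37.6% to 60.9% of the *Il1rl1* UMIs of these samples. *Il17rb* was at 47.6 and 82.0 CPM in MLN and 39.7 and 53.4 CPM in medLN within it. *Il7r* was at 299 and 286 CPM in its MLN cells and 619 and 474 CPM in its medLN cells, and *Il18r1* rested on 1 and 2 UMIs in MLN (136 and 181 cells) and 14 and 10 UMIs in medLN (98 and 105 cells). Effector-like cells of medLN were thus above those of MLN for *Il7r* and *Il18r1* in both mice, with no test made.

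In the IL-4eGFP- gate the few *Il1rl1* UMIs were found mainly in the regulatory-like cluster (1396 cells, led by *Foxp3*), which held 6 of 8, 5 of 5, 9 of 16 and 15 of 20 of them. IL-4eGFP- cells with a *Foxp3* UMI (898 cells) had *Il1rl1* at 8.89, 3.70, 12.8 and 17.4 CPM in the 4 samples, and those without (7776 cells) at 0.27, 0.28, 0.59 and 0.31 CPM, with no overlap. In the same split *Crlf2* was at 105 CPM with and 56.7 CPM without *Foxp3*, and *Il7r* at 133 and 226 CPM. Recirculating-like clusters 1 and 3 (3260 and 2374 cells, at a median of 2937 and 3855.5 UMIs) had 0 and 1 UMI of *Il1rl1*. In the IL-4eGFP- samples alone, cluster 1 had 908, 736, 885 and 687 cells with no *Il1rl1* UMI, which allows a background share of up to 0.330% to 0.437% in each.

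For *Il18r1* the IL-4eGFP- medLN samples stood out in an unnamed cluster led by *Ccr2*, *S100a4* and *S100a6* (1147 cells), where the IL-4eGFP- gate had 39.9 and 28.6 CPM in MLN (36 and 36 cells) and 106 and 66.3 CPM in medLN (70 and 66 cells), and the IL-4eGFP+ samples had 7.37 to 13.4 CPM. Recirculating-like cells, far more numerous, held *Il18r1* at 6.80 and 7.80 CPM. The follicular helper-like cluster (765 cells) had 11.9 CPM of *Il7r* and no *Il1rl1* UMI, as in the first run.

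**Figure D4:**
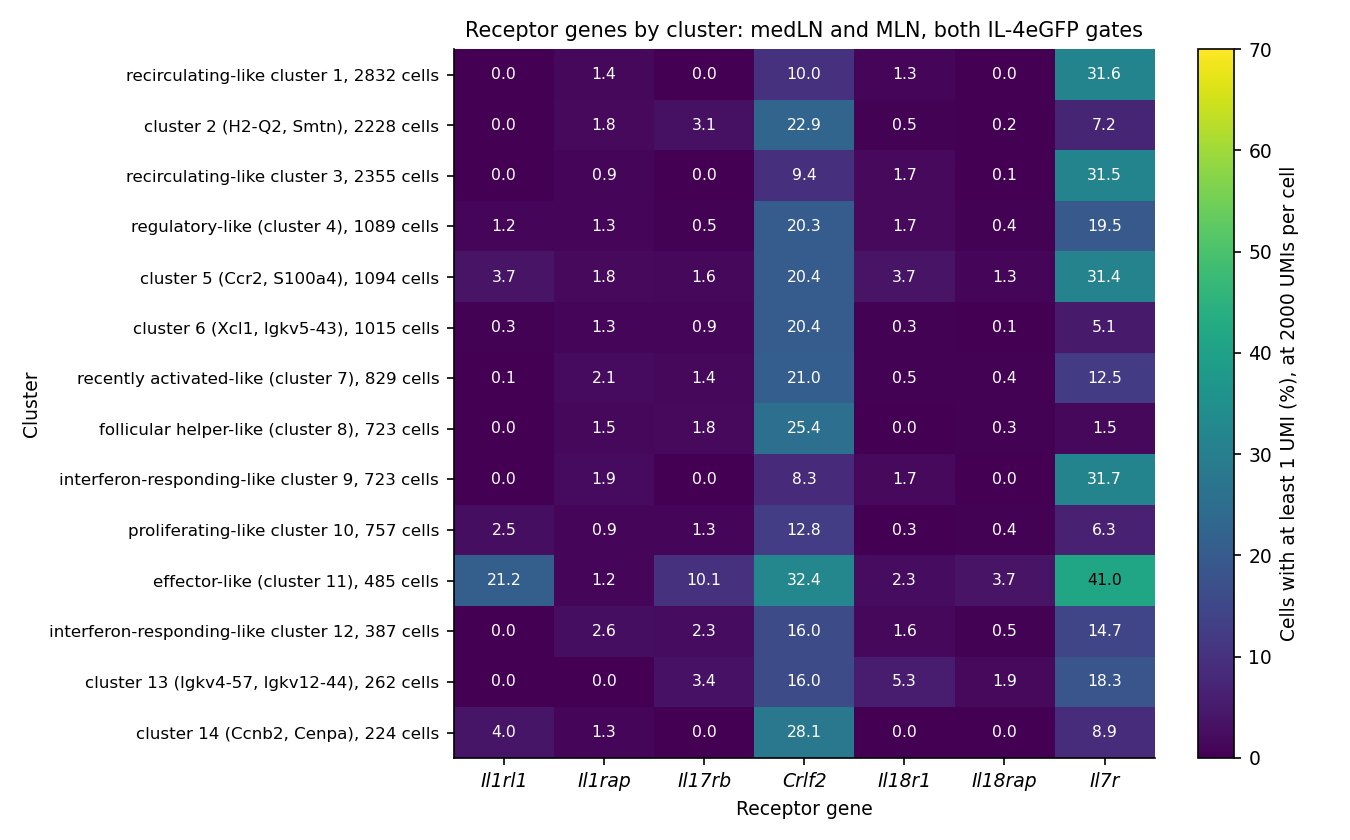
Percent of cells with a UMI of each receptor gene in each cluster of node cells of both gates, after thinning to 2000 UMIs per cell. The cells are those of medLN and MLN. Levels in CPM over the cells of the cluster are not drawn. By these levels, the effector-like cluster is highest for *Il1rl1* (152 CPM), *Il17rb* (59.8 CPM), *Il7r* (397 CPM) and *Crlf2* (197 CPM). The recirculating-like clusters hold *Il7r* (236 CPM in both) with hardly any *Il1rl1*.

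Of 58 listed genes of these pathways (ligands, other receptor chains, adaptors, kinases, STAT factors and inhibitors), 56 were in the count tables and 42 passed the filter in lung and MLN. In lung against MLN 11 of these were higher, 5 were lower and 26 were not called, with a median log2 fold change of 0.18. Over all genes tested, 17.0% were higher and 14.0% were lower in lung. *Tnfaip3*, the NF-kB inhibitor A20, was at 741 and 726 CPM in lung and 35.6 and 25.4 CPM in MLN (log2 fold change 4.68, adjusted p = 4.36e-07). *Cish* and *Socs2*, feedback inhibitors induced by STAT5, followed with 287 and 263 CPM against 31.3 and 29.6 CPM (3.31, adjusted p = 5.63e-07) and 48.3 and 51.3 CPM against 5.33 and 4.49 CPM (3.42, adjusted p = 9.82e-07). Among receptor chains *Il2ra* (2.79), *Il9r* (0.65) and *Il2rg*, the common gamma chain that pairs with the product of *Il7r* (0.57) were higher on the log2 scale, and so was the kinase *Irak2* of the IL-1 receptor family (0.76). *Il1r2*, a decoy receptor for IL-1, was called too (1.72, adjusted p = 0.0278), but its 35.7 and 8.60 CPM in lung overlapped the 6.92 and 11.5 CPM in MLN, and the first lung library stood alone. The adaptor *Traf5* (-1.11) was lower in lung.

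In IL-4eGFP+ against IL-4eGFP- node cells, 9 of the 43 tested pathway genes were higher, 16 were lower and 18 were not called (median -0.10). Over all genes tested by gate, 31.8% were higher and 30.3% were lower, 62.1% in all. *Il1r1*, the signalling receptor for IL-1 on the same stretch of chromosome 1 as *Il1rl1*, was at 14.1, 21.2, 8.13 and 14.7 CPM in the IL-4eGFP+ and 0.124, 0.636, 0.389 and 0.133 CPM in the IL-4eGFP- samples (log2 fold change 5.25, adjusted p = 8.04e-07). *Il1r2*, beside it, had 33.3, 41.7, 32.9 and 39.7 CPM against 2.61, 1.02, 7.79 and 10.5 CPM (2.98, adjusted p = 8.6e-08). *Il1rl2*, which lies between *Il1r1* and *Il1rl1*, had 9.16 to 9.71 CPM against 5.19 to 8.02 CPM, a smaller difference than those of its neighbours (0.33, adjusted p = 0.048). *Il9r* (3.98) and the kinase *Jak2*, used by the TSLP receptor chain (1.32), were higher too, and *Il4ra*, the IL-4 receptor (-2.56), and the inhibitor *Socs1* (-1.60) were lower on the log2 scale. Between medLN and MLN, 0 of 43 pathway genes were called in IL-4eGFP+ cells, against 1.28% of all genes tested. In IL-4eGFP- cells 1 of 40 was called (*Il1r2*, 2.26, edgeR adjusted p = 0.0178), against 0.178% of all genes tested. Of the 8 ligand genes in the tables, *Il25* and *Il1f9* had no UMI in either run, *Il33* had 1 and 3 UMIs in the runs, *Tslp* 3 and 3, and *Il7* 3 and 5. *Il18* reached 1.96 CPM at most in any sample. *Il1b* had 64 UMIs in the first lung library (7.54 CPM) and none in the second, and 0.389 CPM at most elsewhere.

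Across the 12 samples, after the mean of each run was subtracted, the genes whose log2 levels followed *Il1rl1* most closely among 7770 genes were *Bhlhe40* (Pearson's r = 0.996), *Runx2* (0.996) and *Uap1* (0.9897). *Il17rb* was followed by *Pdlim7* (0.991), *Tnfsf14* (0.989) and *Rnh1* (0.987), *Crlf2* by *Hnrnpab* (0.995), *Baz1a* (0.987) and *Lpgat1* (0.987), and *Il7r* by *Arl4c* (0.973), *Btg3* (0.973) and *Pea15a* (0.967). The samples share libraries and mice, and *Il1rap*, *Il18r1* and *Il18rap* were below the mean of 10 CPM set for this search.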

How the data were processed

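The authors sequenced 5′ libraries on a droplet platform and deposited UMI counts per gene and cell barcode, made with Cell Ranger (versions 2.1.1, 3.0.1 and 6.1.2 are named) on mm10/GRCm38. Lung and MLN libraries were sequenced in 2 runs, and 1 table per library was used here. Barcodes with more than 500 UMIs, more than 500 genes, under 7% mitochondrial UMIs and a novelty score over 0.8 were kept, with a productive TCR alpha and beta chain in lung and MLN. Node cells were assigned to mouse and node from hashtag counts with HTODemux (Seurat 5.3.0), and 1256 and 1280 hashtag doublets and 52 and 70 negatives were left out; no other doublet caller was run. Replicates were separate mice. Counts were summed per sample, TCR genes left out, and tested over all genes with edgeR 4.0.16 in R 4.3.3 (filterByExpr, TMM, quasi-likelihood test, Benjamini-Hochberg, threshold 0.05, two-sided); DESeq2 1.42.0 was an alternative. SE is the log2 fold change over the root of F. Shares have exact binomial (Clopper-Pearson, 95%) intervals; these and the limits that 0 counts allow cover counting error only. Clusters used 15 principal components and a resolution of 0.8. The edgeR test, and no other step, was tried on simulated counts. Mouse numbers could pair samples, since both organs or both gates came from the same animals (correlations of deviations 0.0399 for lung and MLN, 0.236 and 0.112 for the nodes in each gate). The main fits had no term for the mouse and did not use this pairing. It entered only the alternatives with the mouse or the hashtag sample as replicate block. Other named genes were the 10 and 6 pathway genes with the largest called changes in lung and by gate, and the 3 genes of most like pattern; 1 of the pathway genes is not reported here; genes singled out beyond these rules were chosen after their values were seen. Members and gene lists were chosen with earlier results of these data known. The authors' cluster names, which the tables used here do not give, were not used.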

Additional observations from a re-analysis of the deposited data

Results flagged for a closer look

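Lung cells that passed the quality filters but lacked a full TCR (523 and 208 cells) were left out of the lung against MLN test and entered only 1 of its alternatives. *Il18r1* stood at 42.2 CPM over both libraries in them, at 37.4 and 56.2 CPM by mouse against 15.7 and 10.4 CPM in the lung cells with a full TCR. After thinning, 6.80% and 8.90% of them had an *Il18r1* UMI, against 3.28% and 2.70%. *Il18r1* was flagged because the intervals of these shares lay apart in both lungs, a rule applied to every member in lung and in MLN. The separation is therefore the rule and not a further result, and the intervals cover counting error over cells only. *Il18rap* was at 44.1 and 51.6 CPM against 15.2 and 10.8 CPM. Marker lists of other cells moved with it. The Th1 list summed to 4495 and 6540.5 CPM in the cells without a full TCR and 73.2 and 154 CPM in the others, the basophil and mast cell list to 1268 and 1571 CPM against 122 and 114 CPM, the myeloid list to 1082 and 1221 CPM against 256 and 245 CPM, and the innate-like list to 263 and 367 CPM against 90.5 and 75.6 CPM. The innate-like sums rested on 5 and 7 of the 9 genes, against 9 and 8 in the others. The CD4 T cell list stayed at 2001 and 2002 CPM in the cells without a full TCR, against 2471 and 2375 CPM in the others. The part of these lists in the *Il18r1* level was not tested. With these cells included, the test called 5 members, among 3461 genes called. Among the 14 groups of 4 samples, no sample lay past Dixon's critical value.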

How the results depend on the processing

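Of the alternatives for the members' log2 fold changes, 431 kept direction and call, 11 lost a call, 6 gained one and 18 changed sign; the cause was not tested. In lung against MLN, *Il1rl1* ranged from 4.47 to 5.62, *Il18rap* from 2.76 to 3.70, *Il7r* from 2.101 to 2.90 and *Il18r1* from 1.90 to 2.72, called in each of the 15 alternatives. Genes called there were 3284, and 1833 with DESeq2, 2130 with cells thinned, 2068 with equal numbers of cells, 3886 with the mouse as replicate block (6 members) and 1907 to 3678 with 1 library left out. For IL-4eGFP+ medLN against MLN they were 144, and 47 without a filter (0 members), 91 thinned, 187 with the block (1 member) and 13 to 191 leaving out 1 sample (0 to 1 members). For IL-4eGFP- medLN against MLN they were 19, and 65 with the block, 2 without a filter, 10 thinned, 6 without *Foxp3* cells, 5 in 1 fit of all 8 samples and 98 to 194 leaving out 1 sample. By gate they were 7162 (6 members), and 7479 with the block (6 members), 5426 with DESeq2 (5 members) and 5250 thinned (6 members). For the interaction they were 18, and 81 with the block, 37 with DESeq2, 68 without a filter, 9 thinned, 10 without *Foxp3* cells and 4 to 13 leaving out 1 sample, with 0 members, or 1 with the block, DESeq2, no filter or thinning. The other block fits changed no call.

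Signs changed as follows. In IL-4eGFP+ medLN against MLN, *Il1rap* was -0.0016 with DESeq2, -0.020 thinned, -0.014 with the ratio rule for hashtags and -0.049 without *Foxp3* cells. In IL-4eGFP- medLN against MLN, *Crlf2* was -0.039 thinned and -0.052 without *Foxp3* cells, and by gate *Il1rap* was 0.14 thinned. Leaving out 1 sample gave, for IL-4eGFP+ medLN against MLN, -0.34 to 0.36 for *Il1rl1* and -0.20 to 0.22 for *Il1rap*, for IL-4eGFP- medLN against MLN -0.029 to 0.12 for *Crlf2*, -0.087 to 0.33 for *Il18r1*, -0.23 to 1.66 for *Il18rap* and -0.18 to 0.039 for *Il7r*, and for the interaction -0.39 to 0.015 for *Il1rap* and -0.81 to 1.12 for *Il18rap*.

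Depth limits the sparse genes. *Il18r1*, *Il18rap*, *Il1rap* and, in IL-4eGFP- cells, *Il1rl1* and *Il17rb* rest on few UMIs per sample, and 2 mice per run leave intervals wide. Gate and library, and organ and dissociation, cannot be told apart.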

Other observations

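In the lung cells without a full TCR, *Il1rl1* was at 583 and 351 CPM and *Il7r* at 436 and 354 CPM, beside 455 and 258 CPM of *Il1rl1* and 419.8 and 367 CPM of *Il7r* in the lung cells with both chains. Their ILC2 markers summed to 445 and 192 CPM, beside 375 and 186 CPM in the lung cells with both chains. The basophil and mast cell list, given above with other lists, was at 1268 and 1571 CPM against 122 and 114 CPM. The part of these lists in the *Il1rl1* level was not tested. No test was made between these cells and the others.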
